A study of Mus musculus with 4 samples.

Results

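Interferon-inducible genes and the tripartite motif (Trim) genes were examined for allele specific expression in gonadal adipose tissue of F1 mice. The members were all autosomal genes with an exonic SNP whose symbol begins with Ifi, Irf, Gbp, Oas, Isg, Mx, Irg, Iigp, Igtp, Rsad2, Trim, Stat, Parp, Usp18, Ddx58, Dhx58, Xaf1 or Slfn, with a number required after the gene family names Irf, Gbp, Mx, Trim, Stat and Parp. This rule found 80 of the 8016 autosomal genes with an exonic SNP, and 78 of them entered the tests of 7990 genes. The SNPs of Trim34 and Trim69 are each also listed for another gene and were counted there. The rule uses gene names only and no measured value, but it was chosen with earlier results of these data known.

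Each F1 animal carries 1 C57BL/6J (B) and 1 DBA/2J (D) copy of every autosomal gene, so reads that cover a SNP between the strains can be assigned to an allele within the same cells. RNA came from 4 pools of chow-fed animals labelled as 8 weeks old. The cross is written with the mother's strain before the father's, and the labels name a BxD female pool of 3 animals, a DxB female pool of 2, a BxD male pool of 3 and a DxB male pool of 3. The study's methods give a later age than the labels, and the animals of a pool cannot be told apart. Each pool gave 1 library of B counts and 1 library of D counts, 8 in all. The file names of the pools labelled DxB female and BxD male give another cross and sex than their labels. The D share of exonic reads on chromosome X was 32.6%, 3.44%, 31.6% and 61.0% in the BxD and DxB pools labelled female and the BxD and DxB pools labelled male, respectively. A male receives its X from the mother, so a BxD male holds only the B copy and a female holds both. A DxB male likewise holds only the D copy, but the pool labelled so had 4281 B beside 6690 D reads, and the cause was not tested. The library labelled DxB female, which held almost no D read, and the library labelled BxD male, which held about as large a D share as the BxD female pool, thus both go against their labels, and both are as the file names give them. The comparison of B with D does not use cross or sex, and for the comparisons that do, values with these 2 pools exchanged are given as well. Unless stated otherwise, 4 values in a row are in this order of labels.

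Counted exonic reads numbered from 3353668 to 4254813 per pool, of which 45.7% to 46.9% carried the D base. The members held 70808 reads in all, 69 of the 78 had at least 10 reads and 54 had at least 100. Among marker genes, 3 of 10 of adipocytes had reads over a SNP and held 42767 to 57269 CPM (counts scaled to the same library total). For macrophages 3 of 8 held 313 to 605 CPM. For lymphocytes 3 or 4 of 9 held 22.1 CPM in the BxD female pool and 5.67 to 8.90 in the other pools. Only reads over SNPs are counted, so these sums depend on which genes carry SNPs and do not compare cell types. Markers of the male reproductive tract had 205 reads in the DxB male pool and none in the others. The part of these cell types in the results below was not tested.

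Interferons are secreted when a cell senses viral nucleic acid. Cytosolic sensors such as Ifih1 and Dhx58 detect foreign RNA, regulatory factors (Irf) turn on the interferon genes, and the secreted proteins act on neighbouring cells through Jak kinases and Stat transcription factors. The genes that are then induced include guanylate binding proteins and immunity related GTPases, which attack the vacuoles of intracellular pathogens, the HIN-200 proteins, several of which bind DNA, Isg15, a ubiquitin-like modifier, and the Schlafen genes. Trim proteins are mostly E3 ubiquitin ligases, several of which act in antiviral signalling, and Parp enzymes attach ADP-ribose to proteins. Adipose tissue holds macrophages and other immune cells beside adipocytes, and many of these genes are used by several of these cell types.

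At an adjusted p-value under 0.05 (edgeR quasi-likelihood test, Benjamini-Hochberg adjustment over all 7990 genes), 22 of the 78 members were called with unequal expression of the alleles, against 17.7% of all genes tested. The B allele was higher for 17 members (12.9% of all genes) and the D allele for 5 (4.84% of all genes). With 1 library size per pool these numbers were 18 and 2, and with any 1 pool left out 14 or 15 and 2 to 4. At an unadjusted p under 0.05 there were 28. The median log2 D to B ratio was −0.13 over the members and −0.02 over all genes, and with genes that lack reads of 1 allele set to the limit that 3 counts allow, it was −0.11 and 0. The B and D libraries were scaled separately, so a ratio of 0 stands for the general excess of B reads and not for equal reads. Irgq, with 184 B and 184 D reads at SNPs with identical listed bases, had a log2 ratio of 0.13. Tallies below of pools or SNPs with more B or more D reads use the unscaled reads. The 5 members with D higher were Ifi202a, Xaf1, Trim6, Parp4 and Trim3. Of the 17 members with B higher, 12 had at least 10 reads of the D allele, and the other 5 (Stat3, Trim37, Trim67, Isg15 and Irf1) had from 0 to 9. Stat3 is kept in all counts of this paragraph, although the study read the B base in DNA of D mice at its only SNP. The calls stood in most groups of the pathway: 3 of 4 HIN-200 genes, 2 of 3 genes with symbols beginning with Isg, 2 of 5 Schlafen genes, 2 of 6 genes of the Mx and guanylate binding protein group, 3 of 8 Parp genes, 1 of 4 immunity related GTPases, 1 of 5 regulatory factors, 1 of 3 Stat genes and 6 of 33 Trim genes. None of the 2 RNA sensors, the Ifit and Rsad2 group (1 gene), the Ifitm group (1 gene) and the other 2 Ifi genes passed, and no oligoadenylate synthetase gene was among the members. The Ifitm gene, Ifitm2, and 1 of the immunity related GTPases, Irgq, could not be called, since their SNPs have identical listed B and D bases.

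**Figure D1:**
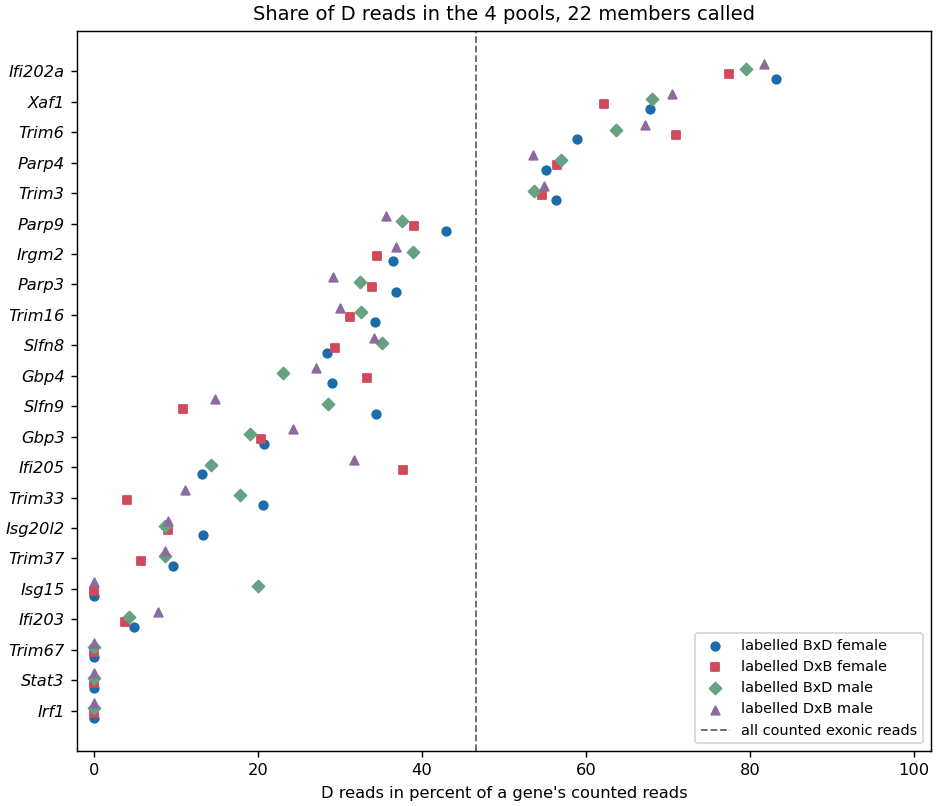
The share of D reads (percent of a gene's counted B and D reads, x axis) is plotted for the 22 members called, with 1 symbol for each of the 4 pools as labelled and a dashed line at the share over all counted exonic reads, 46.5%. The 5 members with D higher lie to the right of the line in all 4 pools, and the 17 with B higher lie to the left of it in all 4 pools.

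**Figure D2:**
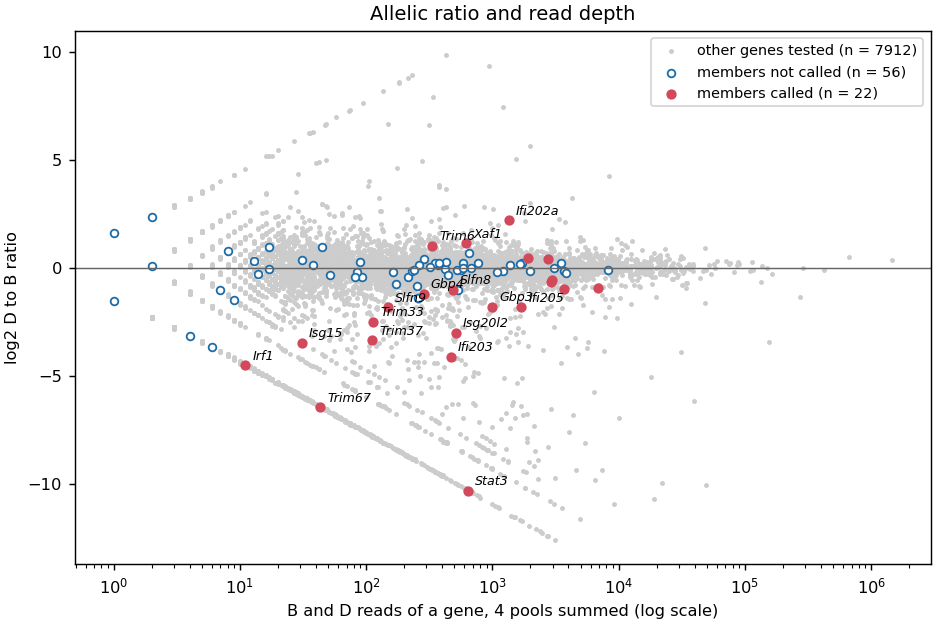
The log2 D to B ratio (y axis) is plotted against the summed B and D reads of a gene on a log scale (x axis) for all 7990 genes, with the 22 members called in red (named where the ratio is at least 1 in size), the 56 members not called in blue and the other genes in grey. Stat3, Trim67 and Irf1 lie on the lower line formed by genes without a D read, where the fitted ratio follows from the number of reads.

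The HIN-200 genes lie close together on chromosome 1 and, among members with at least 10 reads of the weaker allele, held the largest ratio in each direction. Ifi202a, listed under this name in the counts while the annotation of the same build (GENCODE M1, mm9) has a single gene model there under the name Ifi202b, had 512, 202, 221 and 156 D reads and 104, 59, 57 and 35 B reads. The D allele was thus above B in every pool, with a log2 D to B ratio of 2.21 (SE 0.31, n = 4 pools, edgeR adjusted p = 0.00026), or 4.61-fold. Ifi203 went the other way, with 155, 128, 90 and 71 B reads against 8, 5, 4 and 6 D reads, a log2 ratio of −4.09 (SE 0.27, edgeR adjusted p = 4.2e-07). Ifi205 had 620, 193, 409 and 129 B reads and 94, 117, 68 and 60 D reads (log2 ratio −1.81, SE 0.37, edgeR adjusted p = 0.0041). Its B reads ranged widely over the pools while its D reads stayed within a narrower range. Ifi204 had 55 B and 37 D reads and was not called (log2 ratio −0.41, SE 0.41, edgeR adjusted p = 0.59). The genes of this family resemble each other and differ in copy number between mouse strains, so that reads of 1 copy can be placed on another, and their values are uncertain for this reason. For Ifi203, counted SNPs extended beyond the annotated gene, from position 175790312 to 175872364 on chromosome 1, while the annotation places the gene at chr1:175850538-175872803 on the minus strand.

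The ratio of Ifi202a rested on SNPs of 2 kinds within the same exons. At 6 of its 16 SNPs (of those with at least 10 reads) no B read was found beside 705 D reads in all, and the other 10 SNPs held 255 B and 386 D reads, a D share of 60.2%. With every SNP of 1 strain only removed, the log2 ratio was 0.61 and the gene was no longer called (edgeR adjusted p = 0.35). The SNP with the most reads, at chr1:175892898 in the annotated UTR, had 0 B and 180 D reads, whereas the coding SNP at chr1:175901522 had 105 B and 48 D reads. Both are shown on the plus strand of mm9, with the SNP in capitals, because reads are assigned to an allele by this 1 base and by up to 3 mismatches in the alignment.
Ifi202a UTR SNP, chr1:175892884-175892912, B: tcataaggaaatttTcaccattgaattgg
Ifi202a UTR SNP, chr1:175892884-175892912, D: tcataaggaaatttCcaccattgaattgg
Ifi202a coding SNP, chr1:175901508-175901536, B: aaccagcctttcttTtgtttgcaagtgaa
Ifi202a coding SNP, chr1:175901508-175901536, D: aaccagcctttcttCtgtttgcaagtgaa

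Among the guanylate binding proteins, Gbp3 and Gbp4 were called with B higher, and Gbp1, Gbp2 and Gbp5 were not called. Gbp3 (chr3:142223016-142236173, plus strand) had 272, 148, 234 and 131 B reads and 71, 38, 55 and 42 D reads, a log2 ratio of −1.79 (SE 0.21, edgeR adjusted p = 6.6e-05). This difference was not spread evenly over the gene. The exon at its 3′ end, 740 bp long with 4 counted SNPs, held 556 B and 4 D reads, a D share of 0.714% (95% Wilson interval 0.278% to 1.82%). At 2 of these SNPs, with 159 B reads in all, no D read was found. Whether D mice carry the listed D bases in this exon, and whether reads were placed on related Gbp genes, was not tested. The 7 SNPs of the other exons held 229 B and 202 D reads, a D share of 46.9%, which is close to the 46.5% over all counted exonic reads. In the pools, these other exons had 77, 49, 66 and 37 B reads and 69, 37, 54 and 42 D reads, so that the alleles were near balance in each pool. The windows below show the SNP with the most reads in the 3′ exon, with the neighbouring listed SNP in capitals as well, and the SNP whose share differed most from it.
Gbp3 3′ exon, chr3:142235489-142235517, 213 B and 2 D reads, B: aagaatgaaataagTcaCctgagagaaga
Gbp3 3′ exon, chr3:142235489-142235517, 213 B and 2 D reads, D: aagaatgaaataagAcaActgagagaaga
Gbp3 inner exon, chr3:142228341-142228369, 46 B and 55 D reads, B: ctgaagttaaatggTcggcccatcacaga
Gbp3 inner exon, chr3:142228341-142228369, 46 B and 55 D reads, D: ctgaagttaaatggGcggcccatcacaga

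Gbp4 had 61, 52, 40 and 51 B reads and 25, 26, 12 and 19 D reads, a log2 ratio of −1.19 (SE 0.26, edgeR adjusted p = 0.007). The B allele was the higher in all pools, but the call rested on the SNP with the most reads (128 B and 29 D reads), without which the log2 ratio was −0.39 (edgeR adjusted p = 0.55). The deepest SNP left had 54 B and 53 D reads. Gbp2 had the most reads of this family, 2002 B and 1688 D, and a log2 ratio of −0.12 (SE 0.17, edgeR adjusted p = 0.71). Gbp1, with 36 SNPs, had 306 B and 260 D reads (log2 ratio −0.10, SE 0.42), and of its 24 SNPs with at least 10 reads 12 had more B and 12 more D reads. Within the same Gbp1 exon the D share was 5.26% at chr3:142269778 and 86.7% at chr3:142269904. Gbp2 had 399 B and 0 D reads at chr3:142295045 but 110 B and 213 D reads at chr3:142283654. The ratios of both genes are thus averages over SNPs that differ in direction. Gbp5 had 129 B and 157 D reads (log2 ratio 0.41, SE 0.24, edgeR adjusted p = 0.33), and Mx2 had 13 reads in all.

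**Figure D3:**
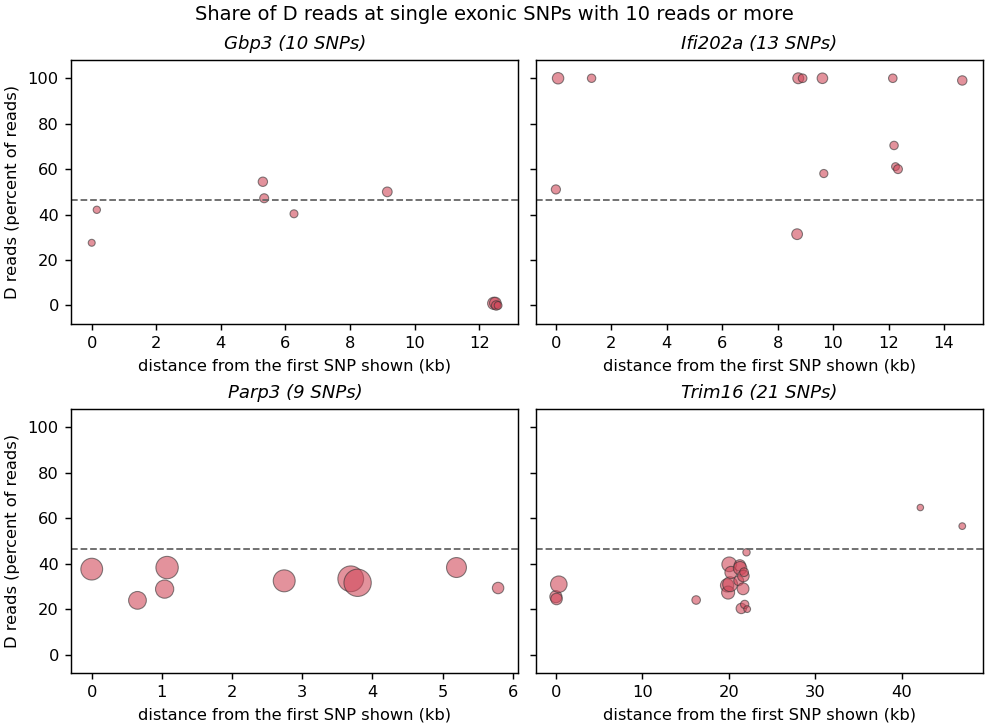
The share of D reads (percent, y axis) is plotted at each exonic SNP with at least 10 reads against its distance in kb from the first SNP shown for Gbp3, Ifi202a, Parp3 and Trim16, with the area of a point growing with its reads and a dashed line at 46.5%, the share over all counted exonic reads. The 4 SNPs of the Gbp3 3′ exon lie near 0 while the other 6 SNPs shown lie nearer the line, the Ifi202a SNPs fall near 100 or between 31.4 and 70.4, and all 9 Parp3 SNPs lie below the line.

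Parp3 and Trim16 were the called members with the most reads, and in both the difference was spread over many SNPs. Parp3, a nuclear ADP-ribosyltransferase of the DNA damage response (chr9:106372653-106379280, minus strand), had 1244, 945, 1371 and 1042 B reads and 725, 486, 660 and 428 D reads (log2 ratio −0.90, SE 0.15, edgeR adjusted p = 0.0012). All 9 of its SNPs had more B than D reads, and its D share was 36.8%, 34.0%, 32.5% and 29.1% in the 4 pools. Trim16 (chr11:62633733-62690964, plus strand) had 606, 732, 603 and 572 B reads and 317, 332, 292 and 246 D reads (log2 ratio −0.96, SE 0.13, edgeR adjusted p = 0.00015). Of its 21 SNPs with at least 10 reads, 19 had more B and 2 more D reads, and the D share lay between 30.1% and 34.3% in the pools. Nearly all of its reads lay in 3 exons, which each had more B reads, while the other 5 exons, at the 3′ end of the gene, had 2, 2, 6, 10 and 0 B reads and 4, 0, 11, 13 and 3 D reads. The SNP with the most reads of each gene, both coding, is shown on the plus strand.
Parp3, chr9:106376834-106376862, 899 B and 415 D reads, B: cacagggccgctgtAcacctggggagata
Parp3, chr9:106376834-106376862, 899 B and 415 D reads, D: cacagggccgctgtCcacctggggagata
Trim16, chr11:62634427-62634455, 308 B and 138 D reads, B: tgccaggaatgcggGgagggtgaacacag
Trim16, chr11:62634427-62634455, 308 B and 138 D reads, D: tgccaggaatgcggCgagggtgaacacag

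Among the other Parp genes, Parp9, which acts with a partner ligase in the interferon response, had 514, 399, 516 and 393 B reads and 387, 255, 310 and 218 D reads (log2 ratio −0.53, SE 0.13, edgeR adjusted p = 0.015). All 10 of its SNPs had more B reads, but the D share of its exons ranged from 30.6% to 49.4%. Its SNP with the most reads, at chr16:35969806, had 352 B and 343 D reads. Parp4, a component of the cytoplasmic vault particle, had 270, 198, 218 and 160 B reads and 331, 257, 288 and 184 D reads, a log2 ratio of 0.45 (SE 0.12, edgeR adjusted p = 0.025). The D allele was the higher in every pool, and at 12 of its 15 SNPs, but the call was lost without any 1 of the pools (edgeR adjusted p = 0.052 to 0.13) and with 1 library size per pool (adjusted p = 0.19). Parp14 had 1669 B and 1820 D reads and was not called (log2 ratio 0.26, SE 0.16, edgeR adjusted p = 0.36), but it was called with the pool as a block (adjusted p = 0.035). Parp2, Parp8, Parp11 and Parp16 were not called, with log2 ratios from −0.33 to 0.25.

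Xaf1, an interferon-inducible antagonist of inhibitors of apoptosis, had 64, 59, 52 and 31 B reads and 135, 97, 111 and 74 D reads. The log2 ratio was 1.15 (SE 0.17, edgeR adjusted p = 0.00043), or 2.22-fold higher for D, and the pools did not overlap between the alleles. Both of its SNPs lie in the same exon of 197 bp, so no other exon bears on the ratio. They had more D reads, with 99 B and 217 D reads at chr11:72118212 and 107 B and 200 D reads at chr11:72118317. The first is coding in GENCODE M1, although the counts list it as intronic, and is shown here.
Xaf1, chr11:72118198-72118226, B: tgcaagttctgtgaGctggccgtgcagct
Xaf1, chr11:72118198-72118226, D: tgcaagttctgtgaTctggccgtgcagct

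In the Trim family, 33 genes were tested, 2 were called with D higher, 4 with B higher and 27 were not called, a share of calls near the 17.7% of all genes. Trim6, which makes unanchored ubiquitin chains in interferon signalling, had 46, 31, 20 and 20 B reads and 66, 76, 35 and 41 D reads (log2 ratio 1.04, SE 0.28, edgeR adjusted p = 0.026). All 13 of its SNPs with at least 10 reads had more D reads. Trim3, a member studied mainly in neurons, had 343, 309, 338 and 251 B reads and 443, 372, 391 and 305 D reads, a log2 ratio of 0.41 (SE 0.10, edgeR adjusted p = 0.012). These differences were small in fold, 2.05-fold for Trim6 and 1.33-fold for Trim3, and in the same direction in all pools. With 1 library size per pool neither gene was called (edgeR adjusted p = 0.067 for Trim6 and 0.11 for Trim3). Without the labelled DxB female or the DxB male pool neither was called (0.13 and 0.11 for Trim6, 0.085 and 0.069 for Trim3), nor was Trim3 without the BxD female pool (0.059). Trim33, also known as a regulator of Smad signalling, had 27, 24, 23 and 24 B reads and 7, 1, 5 and 3 D reads (log2 ratio −2.48, SE 0.40, edgeR adjusted p = 0.0009), and 96 of its 98 B reads and all 16 D reads lay on a single coding SNP at chr3:103114813. Without this SNP only 2 reads were left and the gene was not called (edgeR adjusted p = 0.47).

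Trim37, whose human homologue is mutated in a growth disorder, had 28, 33, 21 and 21 B reads and 3, 2, 2 and 2 D reads (log2 ratio −3.32, SE 0.34, edgeR adjusted p = 1.8e-05). Its 2 SNPs with reads of B only held 93 of the reads and its other 2 SNPs 10 B and 9 D reads. Without the SNPs of 1 strain only, it was no longer called (log2 ratio −0.60, edgeR adjusted p = 0.78), nor without the SNP with the most reads (log2 ratio −0.98, edgeR adjusted p = 0.26). Trim67 had 3, 17, 11 and 12 B reads and no D read at a single SNP in its 3′ UTR, which allows a D share of up to 6.98% and means at least 14.3-fold higher counts of B (edgeR adjusted p = 0.0046). Its depth was low in the BxD female pool.

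Among the Trim genes not called were those with the most reads of the family. Trim25, the ligase that activates the RNA sensor RIG-I, had 4471 B and 3822 D reads (log2 ratio −0.10, SE 0.15, edgeR adjusted p = 0.72). Trim26 had 1602 and 1501 reads and a log2 ratio of 0.03 (SE 0.09), Trim56 831 and 889 reads and a ratio of 0.22 (SE 0.15), and Trim68 801 and 843 reads and a ratio of 0.21 (SE 0.21). Trim11 had 2158 B and 1695 D reads, a log2 ratio of −0.23 (SE 0.10), and more B reads at 11 of its 12 SNPs. It was not called without a block (edgeR adjusted p = 0.16) and was called with the pool as a block (adjusted p = 0.034).

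The pool is the source of both of its libraries, and with the pool as a block 27 members were called, 20 with B and 7 with D higher, of which 21 were among the 22 above, while the share of all genes called was 27.2%. The 6 members gained were Trim11 and Parp14, described above, and 4 others chosen here for this reason. Trim14 had 50, 124, 66 and 127 B reads and 20, 61, 37 and 50 D reads, which differ more between pools than between alleles (log2 ratio −1.01, SE 0.44, edgeR adjusted p = 0.16, and 0.0025 with the block). Without its SNP with the most reads the log2 ratio was 0.04 (edgeR adjusted p = 0.97, no block). Trim29 had 20, 70, 35 and 67 B reads and 10, 18, 9 and 31 D reads (log2 ratio −1.36, SE 0.55, edgeR adjusted p = 0.13, and 0.0071 with the block). In both genes B was above D within every pool. Ifi30, a lysosomal thiol reductase of antigen presentation, had 62, 42, 56 and 99 B reads and 106, 73, 81 and 129 D reads at a single SNP (log2 ratio 0.70, SE 0.35, edgeR adjusted p = 0.23, and 0.0047 with the block). Trim17 had 111 B and 61 D reads (log2 ratio −0.73, SE 0.31, edgeR adjusted p = 0.14, and 0.024 with the block), and 13 of its SNPs are also listed for a histone gene.

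Of the 3 members with symbols beginning with Isg, of which Isg15 is the modifier and the others are exonucleases, 2 were called. Isg15 had 7, 9, 8 and 5 B reads and 0, 0, 2 and 0 D reads at a single coding SNP, a D share of 6.45% (95% Wilson interval 1.79% to 20.7%) and an edgeR adjusted p of 0.012. The calls of Isg15 and Irf1 were lost when the BxD female, the labelled DxB female or the DxB male pool was left out, and that of Irf1 also without the labelled BxD male pool. Isg20l2, a nuclear exonuclease named for its likeness to Isg20, had 143, 110, 94 and 111 B reads and 22, 11, 9 and 11 D reads (log2 ratio −2.99, SE 0.24, edgeR adjusted p = 2.9e-06). It had 4 SNPs with 251 B reads and no D read and 1 SNP, at chr3:87736062, with 206 B and 46 D reads. B was the higher at both kinds of SNP, and without the SNPs of 1 strain only the log2 ratio was −2.05 (edgeR adjusted p = 0.0005). Isg20, an exonuclease that degrades viral RNA, had 167 B and 86 D reads and did not pass the test (log2 ratio −0.81, SE 0.26, edgeR adjusted p = 0.058).

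Stat3, which carries signals of interleukin 6 and other cytokines to the nucleus, had 176, 180, 129 and 158 B reads and no D read in any pool. The 643 reads and a count of 0 allow a D share of up to 0.467%, and the B counts were at least 214-fold higher (edgeR adjusted p = 4.8e-07). All of these reads lay on 1 synonymous coding SNP at chr11:100765040, so that no other site of the gene bears on the value. The study itself read the DNA of D mice at this site and found the B base there, so no statement on the D allele is drawn from this count.
Stat3, chr11:100765026-100765054, B: ttcttaatttgttgGcgggtctgaagttg
Stat3, chr11:100765026-100765054, D as listed: ttcttaatttgttgAcgggtctgaagttg
Stat6, the factor of interleukin 4 signalling, had 687 B and 692 D reads over 3 SNPs (log2 ratio 0.14, SE 0.12, edgeR adjusted p = 0.54), and Stat4 had 1 read.

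SNPs with reads of a single strain were more frequent among the members than over all genes. Of the 378 SNPs of members with at least 10 reads, 32 had no D read (8.47%, against 4.02% of the 34117 such SNPs of all genes) and 7 had no B read (1.85%, against 0.278%). These SNPs are clustered in few genes, among them Ifi202a, Ifi203, Isg20l2, Irgm2 and Slfn8, and SNPs of 1 gene are not independent, so no test was made. With the SNPs of 1 strain only removed, 15 of 69 members were called, 11 with B and 4 with D higher, against 12% of all genes (830 of 6923), and all 15 were among the 22. The study read the DNA of D mice at some SNPs without D reads, and none of those showed the listed D base. Whether D mice carry the listed D base was not tested for Trim67 and Irf1, or for Jak1 named below, which also rest on a single SNP without a D read.

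The regulatory factors were mostly near balance. Irf3, the main switch of interferon gene induction, had 65, 37, 61 and 41 B reads and 64, 57, 54 and 50 D reads (log2 ratio 0.28, SE 0.19, edgeR adjusted p = 0.41). Irf9, the DNA-binding subunit of the complex that interferon activates, had 132 B and 131 D reads at 1 SNP (log2 ratio 0.14, SE 0.33), and Irf2bp1 had 600 B and 490 D reads (log2 ratio −0.16, SE 0.12). Irf1 had 4, 2, 1 and 4 B reads and no D read at a single SNP, which allows a D share of up to 27.3%, and was called (edgeR adjusted p = 0.037) but not with the block (adjusted p = 0.13). Among the RNA sensors, Ifih1 (MDA5) had 327, 271, 280 and 209 B reads and 243, 236, 237 and 178 D reads. B was above D in each pool and at 8 of 9 SNPs, by a log2 ratio of −0.15 (SE 0.10, edgeR adjusted p = 0.41) that did not pass the test. The D share was 39.2% in the exon at chr2:62473112-62473259. In its other exons with SNPs it was 47.1% and 49.0%, above the 46.5% over all counted exonic reads. Dhx58 had 43 B and 47 D reads (log2 ratio 0.29, SE 0.36, edgeR adjusted p = 0.68). The effector Rsad2 (viperin) had 256 B and 187 D reads (log2 ratio −0.33, SE 0.37, edgeR adjusted p = 0.63), and Ifi35 had 221 and 199 (log2 ratio −0.02, SE 0.22). For Ifitm2 and Irgq the list gives identical B and D bases at every counted SNP, and the B and D counts were equal in every pool. These counts thus hold no information on the alleles, and both genes lost all their SNPs when such SNPs were removed.

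Among the immunity related GTPases, Irgm2 had 610, 435, 506 and 305 B reads and 351, 229, 323 and 178 D reads (log2 ratio −0.65, SE 0.16, edgeR adjusted p = 0.016). Its SNPs were of mixed kinds, with 168 B reads and no D read at 3 of them and 1688 B and 1081 D reads at the other 18. Without the SNPs of 1 strain only it was not called (log2 ratio −0.54, edgeR adjusted p = 0.058). All 5 SNPs counted for Igtp are also listed for Irgm2, and these had 665 B and 556 D reads (log2 ratio −0.14, SE 0.23, edgeR adjusted p = 0.77). With these SNPs counted for both genes Irgm2 was not called. Among the Schlafen genes, which restrict the growth of immune cells or viruses, Slfn8 had 131, 84, 70 and 52 B reads and 52, 35, 38 and 27 D reads (log2 ratio −1.002, SE 0.22, edgeR adjusted p = 0.0061). Slfn9 had 21, 49, 25 and 23 B reads and 11, 6, 10 and 4 D reads (log2 ratio −1.81, SE 0.38, edgeR adjusted p = 0.005). Both lie close together on chromosome 11 and resemble each other, and Slfn8 was not called without the SNPs of 1 strain only (log2 ratio −0.74, edgeR adjusted p = 0.078). Slfn2, Slfn4 and Slfn10 were not called, at 215, 9 and 31 reads.

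Intronic SNPs gave a second measure from reads that can come from RNA not yet spliced. In a fit added after the data were seen, 11 of 64 members with intronic SNPs were called, against 11.3% of the 9561 genes. Ifi202a (120 B and 592 D reads, log2 ratio 2.40) and Trim6 (26 and 65, log2 ratio 1.38) were called with D higher on exonic and on intronic SNPs, and Ifi203 (687 and 213, log2 ratio −1.58), Slfn8 (121 and 38, log2 ratio −1.50), Trim16 (301 and 172, log2 ratio −0.66) and Trim33 (19 and 0) with B higher on both. The direction thus held in these 6 members at SNPs that the exonic counts did not use. For Trim33 these were 2 intronic SNPs without a D read, and whether D mice carry the listed D base there was not tested. The placing of reads on related copies, uncertain for the HIN-200 genes as given above, can also affect intronic reads of Ifi202a and Ifi203.

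Of the other called members, 11 with at least 20 intronic reads were not called on intronic SNPs. Irgm2 kept its direction, with 74 B and 38 D intronic reads (log2 ratio −0.89, edgeR adjusted p = 0.13). Parp3 had 1265 B and 1101 D intronic reads, a log2 ratio of −0.11 (edgeR adjusted p = 0.75), whereas its exonic ratio was −0.90. Xaf1 had 368 and 303 (log2 ratio −0.13, edgeR adjusted p = 0.75), against 1.15 on exonic SNPs, and Gbp3 had 94 and 103 (log2 ratio 0.25, edgeR adjusted p = 0.65). Parp9 had 291 B and 376 D intronic reads (log2 ratio 0.49, edgeR adjusted p = 0.086), the opposite direction of its exonic reads. Conversely, Trim17 (48 B and 146 D, log2 ratio 1.81), Trim28 (48 and 99, log2 ratio 1.21) and Stat6 (233 and 333, log2 ratio 0.62) were called with D higher and Irf3 (120 and 48, log2 ratio −1.14) with B higher on intronic SNPs, and none of these was called on exonic SNPs without a block. Trim17 was called there with the block, with B higher, the opposite direction. The difference between the exonic and the intronic ratio of a gene was not itself tested.

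**Figure D4:**
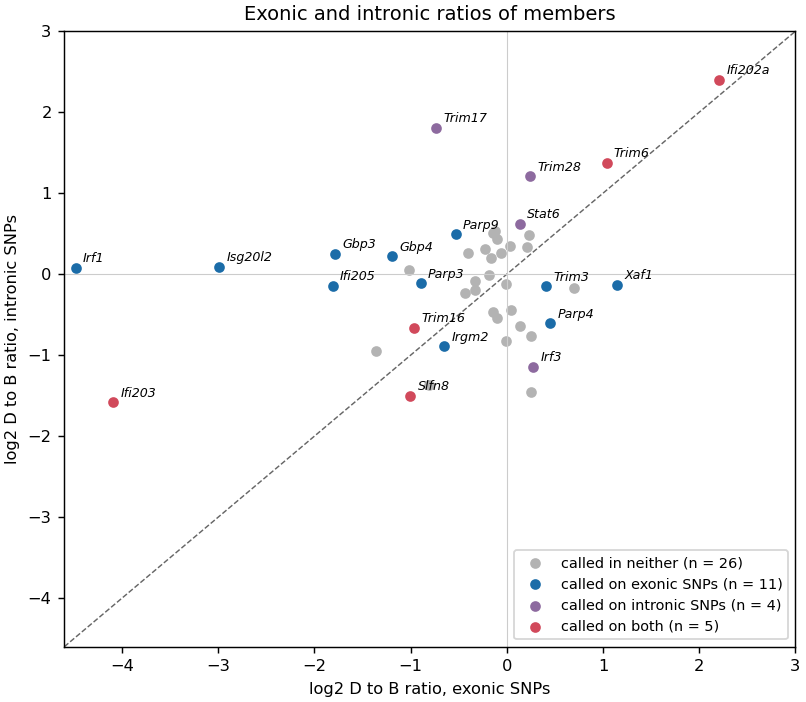
The log2 D to B ratio on exonic SNPs (x axis) is plotted against that on intronic SNPs (y axis) for the 46 members with at least 20 intronic reads, with the dashed line at equal ratios and colours for the 5 members called on both, 11 on exonic SNPs, 4 on intronic SNPs and 26 on neither (Trim33 has fewer intronic reads and is not shown). Ifi202a, Trim6, Trim16 and Slfn8 lie near the line, and Parp3, Gbp3, Xaf1 and Isg20l2 lie near an intronic ratio of 0.

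The reciprocal crosses ask whether a ratio follows the strain or the parent of origin. With the labels, no member was called for a difference between the maternal and the paternal allele (edgeR), no member had an unadjusted p under 0.05, and 0.0% of all genes were called (38 genes had an unadjusted p under 0.05). With DESeq2 no member was called either, and 1 had an unadjusted p under 0.05. With strain added as a covariate no member was called by edgeR, and Ifi205 and Slfn9 had an unadjusted p under 0.05. The DESeq2 fit and the covariate fit used the labels only. With the 2 pools exchanged no member was called and 0.0501% of all genes were. The study reported imprinted genes from these samples, whereas the fits with the labels called no gene at all. These fits therefore cannot show that the members lack a parent effect. The D to B ratio was also compared between the sexes, where 0.1% of all genes and no member were called with the labels (no member at an unadjusted p under 0.05), and 0.0% of genes and no member with the 2 pools exchanged (4 members at an unadjusted p under 0.05). The member with the smallest p was Ifi205, whose D share was 13.2% and 14.3% in the BxD female and the labelled BxD male pool and 37.7% and 31.7% in the labelled DxB female and the DxB male pool. With the pools exchanged, its log2 ratio differed by 1.80 between the sexes (SE 0.33, unadjusted p = 8.1e-05, edgeR adjusted p = 0.64), and with the labels by −0.12 (SE 0.72). By the labels the same split is one of the crosses. By the file names, which the chromosome X counts of the 2 exchanged pools follow, it is one of the sexes.

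The summed reads of both alleles measure the level of a gene in a pool, and fewer cells of a type and less RNA per cell cannot be told apart in it. In a test added after the data were seen, 0.0% of all genes were called between the sexes with the labels (no member, 3 at an unadjusted p under 0.05 by edgeR, and no member by DESeq2). With the 2 pools exchanged, 2.79% of all genes and 4 members were called. Gbp1 had 53.3, 17.4, 43.6 and 23.2 CPM (TMM scaled) in the pools, a log2 male to female ratio of −1.26 with the pools exchanged (SE 0.25, edgeR adjusted p = 0.011). Ifi205 had 155, 75.8, 119 and 58.5 (log2 ratio −1.03, SE 0.20, edgeR adjusted p = 0.012). Both were thus higher in the BxD female and the labelled BxD male pool. Trim14 had 15.2, 45.2, 25.6 and 54.7 CPM (log2 ratio 1.29, SE 0.27, edgeR adjusted p = 0.017) and Trim29 had 6.53, 21.5, 11.0 and 30.3 (log2 ratio 1.57, SE 0.32, edgeR adjusted p = 0.015), higher in the other 2 pools. With a minimum of 10 reads per gene none of the 4 was called (edgeR adjusted p = 0.076 to 0.11). In Ifi205 the pools with the higher total were those with the lower D share, with 620 and 409 B reads against 193 and 129.

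**Figure D5:**
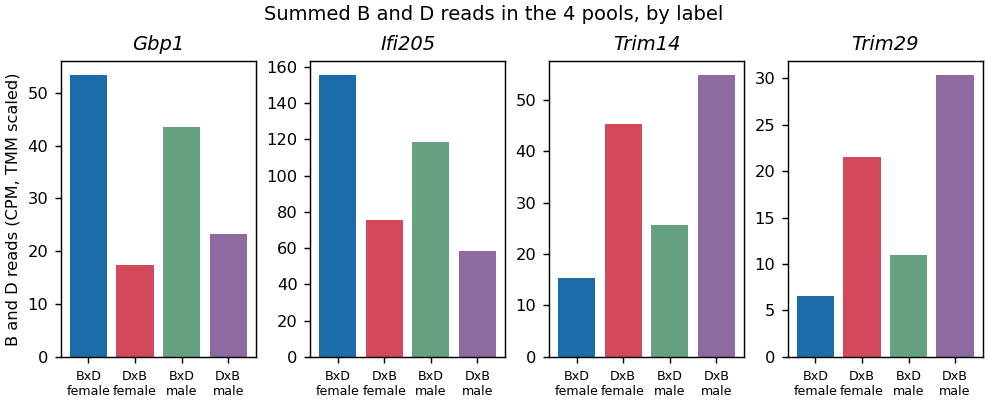
Bars give the summed B and D reads in CPM (TMM scaled, y axis from 0) of Gbp1, Ifi205, Trim14 and Trim29 in the 4 pools by label. Gbp1 and Ifi205 are higher in the 2 pools labelled BxD, and Trim14 and Trim29 in the 2 pools labelled DxB.

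Of 74 other genes of interferon signalling and response, 34 had a counted SNP and 6 were called, 4 with B higher and 2 with D higher, a share near the 17.7% of all genes. Among those with B higher were Ifngr1, a chain of the interferon gamma receptor (3078 B and 1915 D reads, log2 ratio −0.55, SE 0.11, edgeR adjusted p = 0.0037), Pyhin1, a further HIN-200 gene (72 B and 10 D reads), and Jak1 (30 B reads and no D read at 1 SNP). The D allele was higher for Ciita, the activator of MHC class II genes (497 B and 768 D reads, log2 ratio 0.76, SE 0.18, edgeR adjusted p = 0.011), and for Lgals3bp (8353 B and 9817 D reads, log2 ratio 0.36, SE 0.09, edgeR adjusted p = 0.018). The median log2 ratio of the 34 genes was −0.01.

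Many interferon-inducible promoters hold the interferon stimulated response element, which was searched as GAAANNGAAA or, on the other strand, TTTCNNTTTC, from 250 bases before to 50 after the start site (RefSeq, GRCm38.p6, B strain). Of the 59 members matched to a promoter, 20 (33.9%) held it, against 3.99% of 27025 genes. It was found in 17 of the 35 matched members outside the Trim family and in 3 of the 24 matched Trim genes (Trim2, Trim21 and Trim26). Of the 16 called members with a promoter, 8 held it. The matches of 5 called members and of Igtp and Gbp2, relatives that were not called, are shown in the direction of the gene, with the match in capitals, to let related members be compared.
Ifi203: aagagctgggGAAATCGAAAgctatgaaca
Ifi205: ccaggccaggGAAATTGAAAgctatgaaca
Igtp: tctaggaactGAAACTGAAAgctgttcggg
Irgm2: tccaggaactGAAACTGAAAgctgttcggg
Gbp2: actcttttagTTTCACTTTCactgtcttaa
Gbp3: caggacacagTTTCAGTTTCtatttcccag
Isg15: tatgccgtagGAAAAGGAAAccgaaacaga
The match of Isg15 begins 78 bases before the start site, that of Gbp3 45 and that of Irgm2 64. The D sequence of these promoters was not used here, and a match does not show that a factor binds.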

How the data were processed

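RNA of 4 pools of F1 gonadal adipose tissue was sequenced as paired reads. According to the methods, the authors treated mates as single reads, aligned them with mrsFAST to mm9 with up to 3 mismatches and the remaining reads with TopHat (version 1 in the submitters' processing notes, which also name CASAVA), and kept uniquely mapped reads. Whether D variants were masked in the reference is described in 2 ways, so an alignment bias towards B is possible. The other versions are not given in the sources used here. The deposited values are raw counts of B and D reads per SNP, without normalization. Both mates of a fragment can be counted and the sources describe no step against PCR copies, so intervals and limits from 3 counts cover counting error only.

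Exonic SNPs as listed by the authors were used. A position listed for several genes was counted once, and within an exon SNPs within 18 bp of the last one kept were dropped, which left 44210 SNPs in 7990 genes, those of chromosome X included. Kept among these were 329 SNPs with identical listed bases. Counts were summed per gene and allele and tested with edgeR 4.0.16 in R 4.3.3 (TMM, quasi-likelihood fit, Benjamini-Hochberg threshold 0.05) over 8 libraries. Genes without reads were dropped. The SE was taken as the size of the log2 ratio over the root of the F statistic. The p-values measure the spread between pools of animals. B and D libraries of a pool come from the same RNA, and their deviations from the group means had correlations of 0.64, 0.20, 0.63 and 0.13 over 5309 genes, so the pool was used as a block in an alternative fit. Other alternatives were DESeq2 1.42.0, other scalings, SNP sets and read minima, and each pool left out. Intronic SNPs, shared SNPs counted for each gene and summed reads by sex were added after the data were seen. Parent and sex were taken from the labels. The 2 disputed pools were exchanged in the edgeR fits without block or covariate and in fits of summed reads.

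The members, role groups and lists were chosen with earlier results of these data known. Named were the called members with the largest ratios and the same direction in all pools, called members with under 10 reads of the weaker allele, the 8 deepest members not called, Stat3 and up to 3 members per role. Others were chosen after their values were seen, and 1 gene of the wider pathway list is not reported here by name. The tests were tested on simulated counts. Sequences and positions came from NCBIM37 (mm9) with GENCODE M1, which matched 76 of 80 members by name, and promoters from RefSeq (GRCm38.p6). Tables and figures were made in Python 3.11.15 (with scipy 1.17.1, pysam 0.24.0, matplotlib 3.10.9, numpy 2.4.6 and pandas 2.3.3).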

Additional observations from a re-analysis of the deposited data

Results flagged for a closer look

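In 39 named members with at least 100 reads, the share of D reads was examined for a pool that lay far from the other 3 (Dixon's test at the 95% level), which chance gives in about 1 in 20 groups. It was found in 3 members. Isg20l2 had a D share of 13.3% in the BxD female pool, against 8.74% to 9.09% in the others. Trim26 had 46.6% in the DxB male pool and Irf2bp1 had 48.5% in the pool labelled BxD male.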

How the results depend on the processing

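Between 15 and 27 members were called under the 12 other ways of testing B against D on exonic SNPs that keep all pools. The calls of Gbp3, Ifi203, Ifi205, Isg20l2, Parp3, Slfn9, Trim16 and Xaf1 held in these and with each pool left out, 16 in all, and the direction of all 22 calls held there wherever a value could be had. Leaving out 1 pool gave 16 to 19 calls. Parp4 was lost without any 1 of the pools, Trim3 without the BxD female, the labelled DxB female or the DxB male pool, Trim6 without either DxB pool, Parp9 without either male pool and Irgm2 without the labelled DxB female pool. One library size per pool shifted the median of all genes by −0.13 on the log2 scale and gave 20 calls, 18 with B and 2 with D higher, in place of 17 and 5. Parp4, Trim3 and Trim6 were lost there and Isg20 was gained. SNPs at least 50 bp apart lost Slfn8, and DESeq2 and the block lost Irf1. Without the SNP with the most reads Trim33 (−2.31), Gbp4 (−0.39) and Trim37 (−0.98) were lost. With the pool as a block no other call changed beside those given above. No parent or sex comparison gained a member with the block, which was run there with the labels only and not with the pools exchanged.

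Intronic SNPs gave 11 calls. Among members called on exonic SNPs, the log2 ratio there had the opposite sign for Xaf1 (−0.13), Parp4 (−0.61), Trim3 (−0.15), Isg20l2 (0.090), Gbp3 (0.25), Gbp4 (0.22), Parp9 (0.49) and Irf1 (0.080). Among members called on intronic but not on exonic SNPs, it had the opposite sign for Irf3 (−1.14) and Trim17 (1.81), of which Trim17 was called on exonic SNPs with the block. The cause was not tested. Summed reads by sex gave 4 calls with the 2 pools exchanged, by edgeR and by DESeq2, in place of 0. Members with few SNPs and reads limit these results, since 9 of 78 had under 10 reads.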
